A study of Mus musculus with 7 samples.

Results

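Transcript levels of 9 genes of the zona pellucida and oocyte surface were compared between oocytes lacking *Mfn1* and WT oocytes. The 9 genes were *Zp1*, *Zp2* and *Zp3* (zona proteins), *Oosp1*, *Oosp2* and *Oosp3* (oocyte-secreted proteins), *Cd9* and *Izumo1r* (membrane proteins needed for fusion with sperm), and *Astl* (a protease of the cortical granules). They were chosen by symbol for these roles, and all 9 were found among the 22877 rows of the authors' table. Oocytes were isolated from secondary follicles of 8-week-old mice on a C57BL/6J background, and each library was amplified from 5 pooled oocytes and read as pairs of 75 bases. The *Mfn1*-/- group (*Mfn1* fl/fl; *Zp3*-Cre) had 3 libraries, and the WT group, described as littermates, had 4. Cre in this line is driven by the *Zp3* promoter, which is active from the onset of oocyte growth, so the deletion is made in the oocyte and the surrounding granulosa cells keep the gene. The labels do not say which animal gave which library.

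The authors' table gives 1 mean of normalized counts per genotype and gene, and no value for a single library was used here. From 2 means alone no spread between replicates, depth per library or test could be computed. The authors' own p-values for each gene were not used, and every comparison below is a description of 2 means. *Mfn1* itself averaged 0.0577 in the *Mfn1*-/- and 0.616 in the WT group. The oocyte markers *Dppa3* (812 and 816, *Mfn1*-/- and WT) and *Mos* (631 and 673) were among the abundant transcripts, and 9 of 10 oocyte markers had a mean of at least 1 over the 7 libraries. Of 13 granulosa and theca cell markers with a row, 1 reached a mean of 1. This was *Inha*, an inhibin subunit, at 1.87 in *Mfn1*-/- against 0.954 in WT oocytes. The 13 markers summed to 2.48 and 1.83, the lowest of them being *Fshr*, the receptor for follicle-stimulating hormone and named after its values were seen, at 0.016 and 0.0171. Their part in the values below was not tested.

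The zona pellucida is the glycoprotein coat that a growing oocyte secretes around itself. ZP2 and ZP3 polymerize into filaments, ZP1 cross-links them, and the genes are transcribed in growing oocytes under FIGLA, a basic helix-loop-helix factor that binds E-boxes with E proteins. Sperm that pass the coat bind JUNO, encoded by *Izumo1r*, and fuse with a membrane that carries the tetraspanin CD9. After fertilization, cortical granules release ovastacin, encoded by *Astl*, which cleaves ZP2 so that further sperm do not bind.

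Sequence upstream of a gene's start is shown for *Zp3*, the most abundant of the 9 and the gene whose promoter drives Cre, and for the neighbours *Oosp1* and *Oosp2*, whose differences between genotypes were unequal. Each is written 5′ to 3′ on the gene's strand from RefSeq (GRCm38.p6) and ends before the first start that GENCODE M21 annotates. Capitals mark E-boxes (CANNTG, a motif that reads the same on both strands). The *Zp3* stretch is chr5:135979855-135980098 on the plus strand, that of *Oosp1* is chr19:11691151-11691301 on the minus strand, and that of *Oosp2* is chr19:11660560-11660809 on the minus strand.
Zp3: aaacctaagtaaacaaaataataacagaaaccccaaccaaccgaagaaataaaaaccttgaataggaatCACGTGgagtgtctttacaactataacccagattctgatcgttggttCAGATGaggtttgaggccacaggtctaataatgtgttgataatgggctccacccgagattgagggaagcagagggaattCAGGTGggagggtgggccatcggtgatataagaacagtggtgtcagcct
Oosp1: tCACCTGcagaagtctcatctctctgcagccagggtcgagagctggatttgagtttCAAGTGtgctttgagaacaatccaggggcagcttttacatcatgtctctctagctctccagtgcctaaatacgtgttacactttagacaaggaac
Oosp2: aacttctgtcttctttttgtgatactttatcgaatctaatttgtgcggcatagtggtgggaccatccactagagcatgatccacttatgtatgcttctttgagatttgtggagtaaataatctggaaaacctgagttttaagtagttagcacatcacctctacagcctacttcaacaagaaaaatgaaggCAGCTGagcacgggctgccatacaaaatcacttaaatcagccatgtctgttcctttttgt

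These stretches come from promoter windows of 300 bases, 250 before and 50 after the RefSeq start, which were matched for 6 of the 9 genes. Not shown are *Zp1*, *Zp2* and *Oosp3*. An E-box was present in 72.3% of all 32851 windows of this length, so its presence alone is common. The *Zp3* window held 4, with first bases at -181 (CACGTG), -134 (CAGATG), -55 (CAGGTG) and 7 (CAGCTG) relative to the start, and 6.49% of all windows held 4 or more. The *Oosp1* window held 5, which 2.1% of all windows reached, but only 2 of these lie in the stretch shown. The others, at -93, -59 and -48, lie within the gene as GENCODE annotates it. At least 2 were held by 39.6% of all windows. Those windows have 300 bases and the *Oosp1* stretch shown has 151, so the lengths are unlike. The *Oosp2* window held 1, beginning at -60. The *Izumo1r* window held 1, beginning at -57, which lies within the gene as GENCODE annotates it. The *Cd9* window held 3, of which that at -25 lies within the annotated gene. Of the 2 *Astl* windows, that at the annotated start held none. The other held 3, but all of it (127341386 to 127341685) lies within the annotated gene. The homeobox core TAATTN, searched on both strands, was found in the *Oosp2* window at -214 and in no other window of these genes, against 27.0% of all windows. TATAAA, searched on both strands, was found in none of them, against 13.6% of all windows. No E-box overlapped the TAATTN match, and none of these matches was tested for binding.

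The zona transcripts were the most abundant of the 9 genes in both genotypes, and each had a slightly higher mean in *Mfn1*-/- oocytes. *Zp3*, which encodes the filament protein ZP3, spans bases 135980099 to 135988624 of chromosome 5 (GRCm38). It averaged 708 normalized counts in *Mfn1*-/- against 609 in WT oocytes, a difference of 16.3%, and its mean over the 7 libraries ranked 16 in the table. *Zp2*, whose product is the substrate of ovastacin (chromosome 7, 120126772 to 120145291), averaged 188 against 163, a difference of 15.3%. *Zp1*, whose product cross-links the filaments (chromosome 19, 10914287 to 10920632), averaged 150 against 143, a difference of 4.9%. Log2 fold changes were computed here as *Mfn1*-/- over WT after adding 0.1 to both means, which understates the change of low genes. They were 0.22 for *Zp3*, 0.21 for *Zp2* and 0.07 for *Zp1*. Among the 6226 genes that averaged at least 1 over the libraries the median was 0.16, so these 3 differences lay close to the general shift of the table. In libraries of pooled oocytes, less RNA per cell and fewer cells that hold a transcript cannot be told apart. Relative to that median *Zp3* lay 0.06 and *Zp2* 0.05 above, whereas *Zp1* lay at -0.09 and so changed its direction, as it did when the genotype means were scaled to equal sums.

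**Figure D1:**
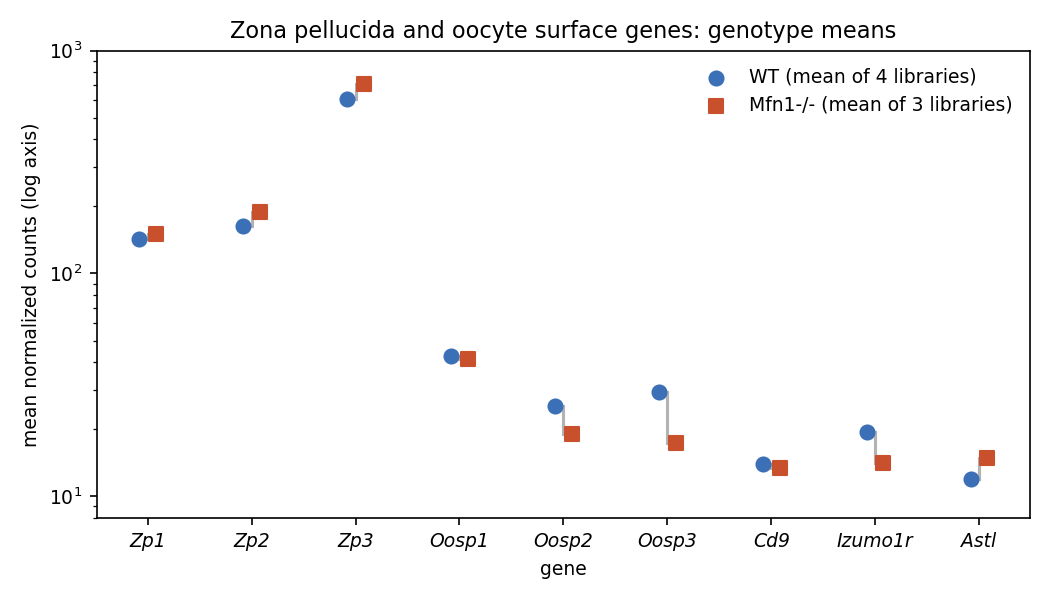
Mean normalized counts (log axis) of the 9 genes, as the authors averaged them over 4 WT libraries (circles) and 3 *Mfn1*-/- libraries (squares), with no spread to draw. *Zp3* lies highest, at 609 and 708, and *Oosp3* has the largest gap, from 29.5 in WT to 17.3 in *Mfn1*-/- oocytes, while the small gap of *Zp1* turns direction when the general shift is removed.

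The relative amounts of the zona transcripts were similar in the genotypes. *Zp3* made up 67.7% of the summed zona means in *Mfn1*-/- and 66.6% in WT oocytes, *Zp2* 18.0% and 17.8%, and *Zp1* 14.3% and 15.6%. The 3 genes summed to 1046 and 915 normalized counts, which is 0.734% of the sum over all genes in *Mfn1*-/- and 0.703% in WT oocytes. Whether the authors' normalization already divides by transcript length is not given in the sources used here. Levels were therefore also divided by the longest coding transcript of GENCODE M21, which has 1323 bases for *Zp3*, 2233 for *Zp2* and 1963 for *Zp1*. Over 6058 genes with a mean of at least 1 and a known length, mean and length had a Spearman correlation of -0.32. If the deposited values were already divided by length, the values per kilobase divide by it again. Per kilobase the level of *Zp3* was 535 in *Mfn1*-/- and 460 in WT oocytes, that of *Zp2* was 84.2 and 73.0, and that of *Zp1* was 76.4 and 72.8. *Zp3* thus exceeded *Zp2* by 3.77-fold and 3.74-fold on the deposited scale (*Mfn1*-/- and WT), and by 6.36-fold and 6.31-fold per kilobase. *Zp2* and *Zp1* were neighbours in this order, at a ratio of 1.25 and 1.14 on the deposited scale and 1.10 and 1.00 per kilobase, and without replicate values they cannot be separated.

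The oocyte-secreted proteins are small secreted proteins related to PLAC1, and their genes lie side by side on chromosome 19. *Oosp2* (11647279 to 11660559, minus strand), *Oosp1* (11667460 to 11691150, minus strand) and *Oosp3* (11697055 to 11711874, plus strand) span 64.6 kb, with gaps of 6.9 and 5.9 kb. Each of the 3 was lower in *Mfn1*-/- oocytes, but by unequal amounts. *Oosp3* averaged 17.3 normalized counts in *Mfn1*-/- against 29.5 in WT oocytes, which is 1.7-fold lower and a log2 fold change of -0.77, the largest difference of the 9 genes. *Oosp2* had 19 and 25.4, a log2 fold change of -0.42. *Oosp1* had 41.2 and 42.6, a log2 fold change of -0.05. *Oosp1* therefore exceeded *Oosp3* by 2.38-fold in *Mfn1*-/- and 1.44-fold in WT oocytes, and by 1.98-fold and 1.2-fold per kilobase. *Oosp2* and *Oosp3* exchanged places, with a ratio of *Oosp3* to *Oosp2* of 0.91 in *Mfn1*-/- and 1.16 in WT oocytes on the deposited scale, while per kilobase it was 0.764 and 0.974. The 3 genes summed to 77.5 and 97.5, a ratio of 0.795. An exon of *Oosp3* overlaps the pseudogene *Gm19224* on the opposite strand, and whether the counting used strand is not given in the sources used here.

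The transcripts for the membrane proteins and the granule protease were the least abundant of the 9 on the deposited scale, and none of the 3 differed by over 2-fold. *Izumo1r* encodes JUNO, the receptor for IZUMO1 on sperm, which is held in the membrane by a GPI anchor (chromosome 9, 14885814 to 14903949). It averaged 14.1 in *Mfn1*-/- against 19.4 in WT oocytes, 1.38-fold lower, with a log2 fold change of -0.46. *Cd9* (chromosome 6, 125460266 to 125494791) averaged 13.4 against 14, a log2 fold change of -0.06. Transcripts of *Cd9* share at least 75 bases at 95% identity with 11 other genes, so the counting could have assigned some of its reads to these, and no such stretch was found for the other 8 genes. One of the 11, *Gm26728*, overlaps a *Cd9* exon on the opposite strand and averaged 0.0307 against 0.0429. *Astl*, which encodes the zona protease ovastacin (chromosome 2, 127338639 to 127357651), averaged 14.9 in *Mfn1*-/- against 11.9 in WT oocytes, 25.2% higher, with a log2 fold change of 0.32. *Astl* was thus the gene with the largest difference towards *Mfn1*-/-, and it remained higher, at 0.16, once the general shift was subtracted. *Izumo1r*, *Cd9* and *Astl* lay within 11.9 to 19.4 normalized counts, and their order was *Izumo1r*, *Cd9*, *Astl* in WT and *Astl*, *Izumo1r*, *Cd9* in *Mfn1*-/- oocytes on the deposited scale. Per kilobase *Astl* was the lowest in both, at 6.27 in *Mfn1*-/- and 5.01 in WT oocytes, and *Cd9* and *Izumo1r* were at 10.91 and 10.92 in *Mfn1*-/- and at 11.4 and 15.0 in WT oocytes.

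No member passed a 2-fold difference, 0 of 9, whereas 7.61% of all 22877 genes did (4.87% higher and 2.75% lower in *Mfn1*-/-). Among the 1523 genes at least as abundant as *Astl*, the lowest member, 5.12% did. At a 1.5-fold threshold in either direction 1 of 9 members passed, *Oosp3*, which was lower. Lower by as much were 6.88% of all genes and 5.19% of those 1523 genes, and these shares leave out genes that were higher by as much. The members' log2 fold changes had a median of -0.05, against 0.04 over all genes and 0.18 over the 1523 genes. Of the 9 genes 4 were higher and 5 lower in *Mfn1*-/- oocytes as deposited, *Zp1* changing sides with the shift of the table removed, against 70.9% higher and 28.4% lower among the 1523 genes. With the shift of 0.16 subtracted from every gene, 3 members lay above and 6 below 0, against 52.7% and 47.3% of the 1523 genes. All 9 genes had a mean of at least 1, so a filter at that level removed none. The 9 genes together held 0.818% of the summed means in *Mfn1*-/- and 0.813% in WT oocytes, with *Zp3* the largest part in both.

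**Figure D2:**
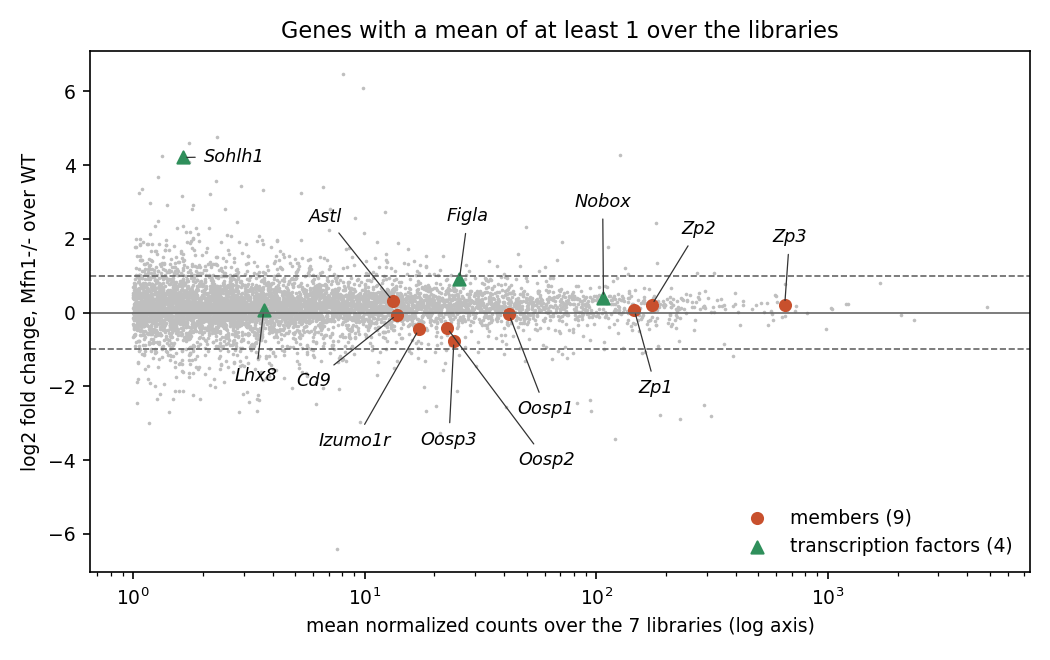
Log2 fold change (*Mfn1*-/- over WT) against the mean over the 7 libraries (log axis) for 6226 genes that averaged at least 1 (grey), with the 9 members as circles, 4 transcription factors as triangles and dashed lines at a 2-fold difference. The members lie between -0.77 (*Oosp3*) and 0.32 (*Astl*), with *Zp1* at 0.07 falling to -0.09 once the median of 0.16 is subtracted, and *Sohlh1* lies at 4.20.

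Since no replicate spread can be given, each member was set beside the genes whose mean was within 2-fold of its own. This places a difference among genes of like level and is not a test. *Oosp3* had a lower log2 fold change than most such genes, with 3.1% of 1088 genes below it, which puts it outside their central range of -0.51 to 0.86 (5th to 95th percentile). *Oosp2* had 6.7% of 1120 genes below it and *Izumo1r* 6.75% of 1274, both inside that range near its lower end. *Oosp1* had 23.2% of 781 genes below it and *Cd9* 24.8% of 1428. The zona genes lay near the middle, with 39.7% of 300 genes below *Zp1*, 54.4% of 248 below *Zp2* and 66.7% of 39 below *Zp3*. *Astl* had 65.6% of 1451 genes below it. Rounding of the deposited means to 3 digits leaves the log2 fold change of *Oosp3* between -0.77 and -0.76 and that of *Zp1* between 0.06 and 0.08.

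**Figure D3:**
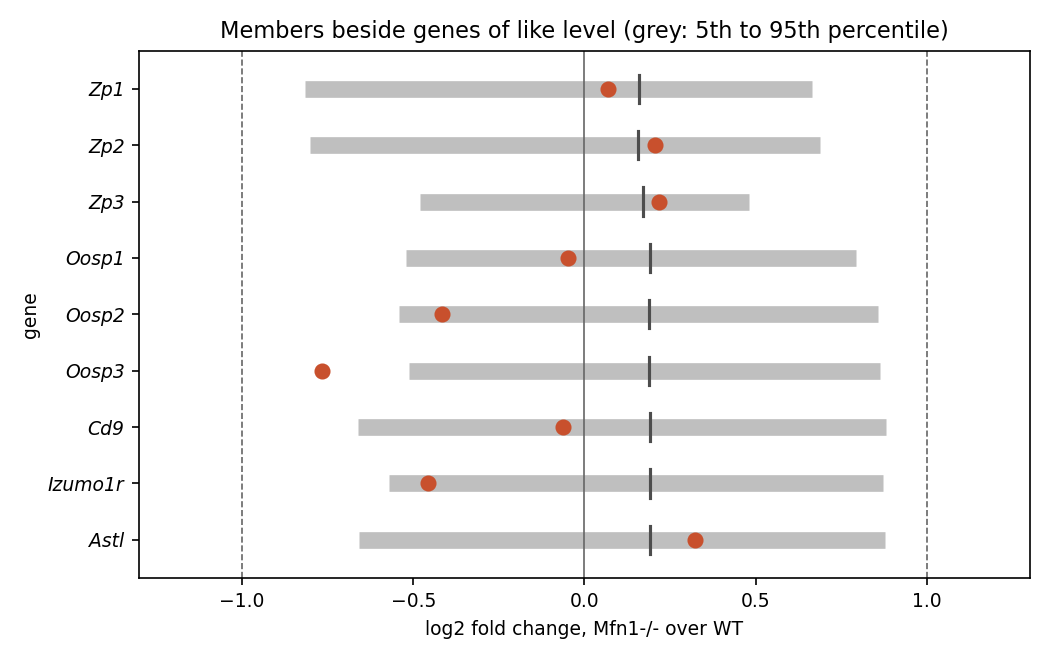
Log2 fold change (*Mfn1*-/- over WT) of each member (circle) beside the 5th to 95th percentile (grey bar) and median (tick) of genes whose mean lies within 2-fold of its own, with dashed lines at a 2-fold difference. *Oosp3*, at -0.77, lies outside its bar, *Oosp2* and *Izumo1r* lie near the lower end, and *Zp1* lies to the right of 0 but to the left of its tick, at 0.16.

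The genes nearest to each zona gene were found by their distance on the log2 scale of both genotype means, over 2 values only. For *Zp3* these were *Omt2b* (686 in *Mfn1*-/- and 655 in WT), *Gm2000* (673 and 549) and *Mos* (631 and 673), at distances of 0.11, 0.17 and 0.22. For *Zp2* they were *Gm10175*, *Gm10131* and *Gm11221*, at distances of 0.035 to 0.039, and for *Zp1* they were *Pigyl*, *Gm7868* and *Gpx4-ps2*, at 0.031 to 0.071. A small distance means no more than a like level and a like difference between 2 means.

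Other genes that act with the members were described from lists by role. Of 8 transcription factors known to act on zona or oocyte surface genes, 1 was higher by over 2-fold in *Mfn1*-/- oocytes and 0 were lower, with a median log2 fold change of 0.19, while 4.87% of all genes were higher by as much. This was *Sohlh1*, a basic helix-loop-helix factor of early oocytes, which averaged 3.68 in *Mfn1*-/- against 0.105 in WT oocytes. Its log2 fold change of 4.20 depends on the pseudocount at so low a WT mean, being 5.00 with 0.01 and 2.08 with 1. *Figla* averaged 34.9 against 18.7, a log2 fold change of 0.90 that 95.8% of 1055 genes of like level did not reach. *Nobox*, a homeobox factor of oocytes and the most abundant of the list, averaged 124 against 94.9, a log2 fold change of 0.39. The 3 zona genes, at 0.07 to 0.22, thus had smaller differences than *Figla*, and this difference between genes has no replicate check. Of 18 CD9 partners, tetraspanins, integrins and complement regulators, 0 passed in either direction with the pseudocount of 0.1, against 7.61% of all genes. The count was 2 with 0.01 and 3 with none, against 17.1% and 21.0% of all genes, and 8 of the 18 had a mean under 0.1. The median was 0.05, and 3 genes had a mean of at least 1. The 2 most abundant were the GPI-anchored complement regulator *Cd55*, with 5.94 in *Mfn1*-/- against 9.27 in WT oocytes, and the tetraspanin *Cd151*, with 3.09 and 2.63, and exons of both overlap a gene on the opposite strand.

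Of 20 genes of GPI anchor synthesis and transfer, the pathway that JUNO needs, 1 was higher by over 2-fold and 0 were lower, with a median log2 fold change of 0.30. This is near the 4.87% of all genes that were higher by as much. The gene was *Gpaa1*, a subunit of the transamidase that attaches the anchor, at 5.6 in *Mfn1*-/- against 2.46 in WT oocytes, with a log2 fold change of 1.15, which is under 2-fold with a pseudocount of 1 (0.93) or with the shift of the table subtracted (0.996), so that the count was then 0, while it was 3 with a pseudocount of 0.01 or none. The 2 most abundant were *Pigc* (15.9 and 12.8) and *Pigf* (5.72 and 4.67), while *Izumo1r* was lower in the same oocytes. Of 16 SNARE and RAB genes of granule exocytosis, 1 was higher by over 2-fold and 0 were lower, with a median of 0.06. This was *Vamp2*, a vesicle SNARE named after its values were seen, at 0.764 and 0.0435, below a mean of 1 in both genotypes. Its log2 fold change was 2.59, but 0.76 with a pseudocount of 1, when the count was 0, and the share of all genes higher by over 2-fold was 4.87%. The most abundant were *Vamp8* (38.2 and 32.6) and *Napa*, which encodes α-SNAP (7.74 and 5.67). Of 11 enzymes of N- and O-glycan synthesis 0 passed with the pseudocount of 0.1, and 1 did with 0.01 or with none. Over all genes the shares were 7.61%, 17.1% and 21.0% at these settings. The median was 0.00 between 5 higher and 6 lower genes, and 5 of the 11 had a mean under 0.1. The 2 most abundant were *C1galt1c1*, the chaperone of the core O-glycan enzyme (30.2 and 21.7), and *Mgat2* (1.59 and 1.34). Of 4 proprotein convertases with a row, the proteases that can release zona proteins from their precursors, 0 passed with any pseudocount or with none. All had a mean under 1, and 3 of them under 0.1. *Furin* had the highest mean, at 0.387 and 0.398, followed by *Pcsk7* at 0.0698 and 0.096.

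**Figure D4:**
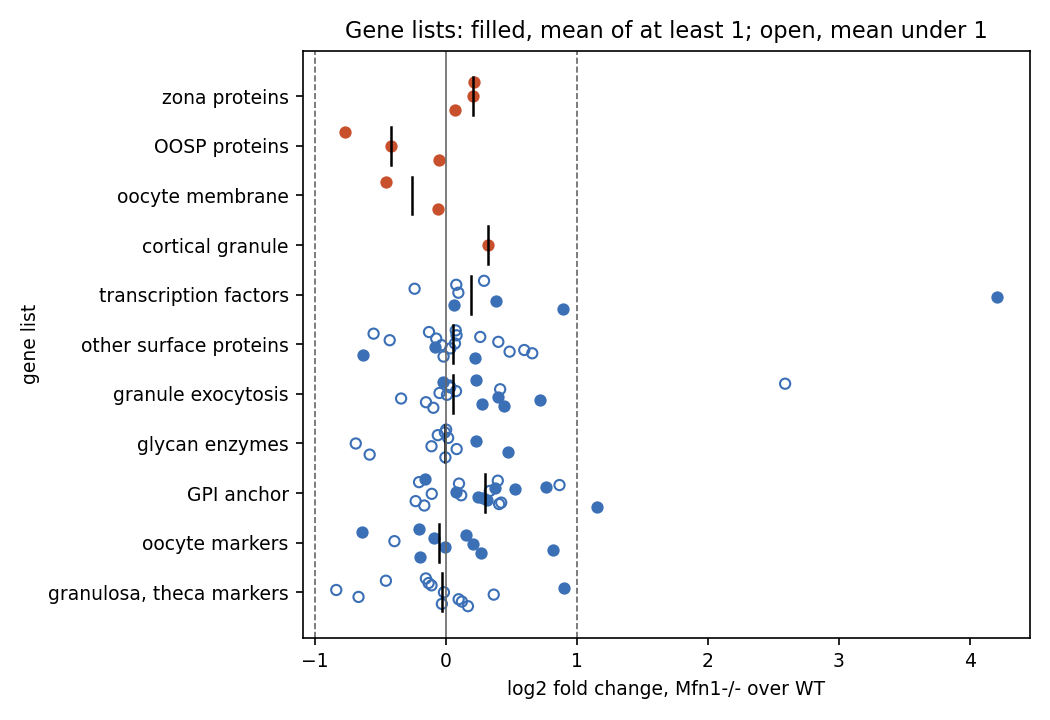
Log2 fold change (*Mfn1*-/- over WT) of the members in their 4 roles and of 7 other gene lists, each point a gene, filled where its mean over the libraries is at least 1 and open where it is lower, with a bar at each list's median and dashed lines at a 2-fold difference. Past the lines lie *Sohlh1* at 4.20, *Vamp2* at 2.59 and *Gpaa1* at 1.15, and all 9 members lie between the lines, *Zp1* at 0.07 before and -0.09 after removal of the general shift.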

How the data were processed

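RNA of 7 libraries was sequenced, 4 WT and 3 *Mfn1*-/-, and groups were taken from the sample titles. Per the authors, adapters were removed with Cutadapt, low-quality reads with the FASTX-Toolkit, and STAR was run against GRCm38/mm10 before reads were counted per gene. The authors name the DESeq2 package for differential expression, without saying whether it gave the deposited normalized counts. The annotation, strand setting and normalization are not given in the sources used here. For each gene the authors deposited a signal, namely normalized counts averaged within a genotype (lowest value 0.01) and summed over libraries. Within 1%, that sum matched 3 *Mfn1*-/- and 4 WT libraries in 100% of genes, although the study's design text gives 3 animals a group. The table also holds the authors' p-values, FDR, ratio and fold change, which were not used. Since it gives no value per library, depth and replicate error are unknown.

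Log2 fold changes were computed from the means with a pseudocount of 0.1, and a difference of over 2-fold was counted. Members, lists and motifs were chosen with earlier results of these data known. The rule for named genes took the 9 members, *Mfn1*, the 2 most abundant genes of each other list, those past 2-fold with a mean of at least 1, and the 3 genes nearest each zona gene. Named outside it, after their values were seen, were *Fshr*, *Vamp2*, *Izumo1*, *Hsd17b1*, *Foxl2*, *Umodl1*, *Zp4-ps*, *Lhx8* (in a figure) and the genes that overlap others. Of the lists, the table had no row for some genes, which were left out. Positions and lengths came from GENCODE M21, promoter windows from RefSeq. By these positions, exons of further named genes also overlap another gene. Among them are *Pcsk7*, *Furin*, *Pigf*, *Mgat2*, *Folr2* and *Foxl2* on the opposite strand, and *Pigc*, *Izumo1* and *Tgfbr3* on the same strand. With the strand setting unknown, their values carry the same limit as those of *Oosp3*. Transcripts were compared with blastn 2.17.0. The code was tested on simulated data. Python 3.11.15, numpy 2.4.6, pandas 2.3.3 and matplotlib 3.10.9 were used. Alternatives were other pseudocounts, a 1.5-fold threshold, minimum means, centring and scaling to equal sums. Chosen after seeing the data were a background of genes as abundant as the members and a 1.5-fold window for genes of like level.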

Additional observations from a re-analysis of the deposited data

How the results depend on the processing

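The count of members past a 2-fold difference was 0 with every pseudocount, with centring and with equal sums, and 1 (*Oosp3*) at a 1.5-fold threshold. The median log2 fold change of the 9 members was -0.05 with every pseudocount. It was -0.21 after centring on the median of genes with a mean of at least 1 and -0.18 with the genotype means scaled to equal sums, as both settings lower every gene alike. *Zp1* changed direction under these 2 settings, and the other 8 members kept theirs under the 5 settings run for each. The share of all genes past 2-fold was 7.61%, but 17.1% with a pseudocount of 0.01, 21.0% with none, 1.39% with a pseudocount of 1 and 11.5% among genes with a mean of at least 0.1, since low means set that share. Of 85 counts over the gene lists under these settings, 69 were equal to the main count or within 1.5 times of it, and 16 moved. Each main count was 0 or 1, and a 0 that stayed 0 was taken as equal. These numbers therefore say little about how stable the lists are. Leaving out a library was not run and no paired analysis was possible because the table gives genotype means alone, so neither error nor depth limits can be stated.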

Other observations

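Another zona gene, *Zp4-ps*, is a pseudogene in the mouse and was named after its values were seen. It lies on chromosome 13 from 11522052 to 11528852 and averaged 3.83 normalized counts in *Mfn1*-/- against 3.3 in WT oocytes. Its log2 fold change of 0.21 is close to those of *Zp2* and *Zp3*, at 0.21 and 0.22, and above that of *Zp1*, at 0.07. It lay 0.05 above the median of 0.16 of genes with a mean of at least 1. Of 2551 genes of like level, 57.2% lay below it. An exon of it overlaps *Gm47487* on the opposite strand.

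A list of other genes with a zona pellucida domain had 7 members with a row. Of these 0 passed a 2-fold difference with the pseudocount of 0.1, and 1 did with none, against 7.61% and 21.0% of all genes. A mean under 0.1 was found for 6 of the 7. The highest of the list were *Dmbt1* (0.189 in *Mfn1*-/- and 0.305 in WT oocytes) and *Tgfbr3* (0.069 and 0.0882). The list left out *Umodl1*, which also encodes a zona pellucida domain and was named after its values were seen. *Umodl1* averaged 17.7 in *Mfn1*-/- against 34 in WT oocytes, a log2 fold change of -0.94, and its mean of 27 over the libraries exceeds those of *Oosp2*, *Oosp3*, *Izumo1r*, *Cd9* and *Astl*. The folate receptors *Folr1* (0.0299 and 0.0202) and *Folr2* (0.0266 and 0.0115) stood against 14.1 and 19.4 for *Izumo1r*, and *Plac1*, a relative of the *Oosp* genes, had 0.0167 and 0.0239.

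Of 5 sperm partners of the zona and oocyte membrane with a row, 0 passed with the pseudocount of 0.1, while 1 did with 0.01 or after centring and 2 with none. The shares of all genes were 7.61% with 0.1, 17.1% with 0.01, 7.58% after centring and 21.0% with none. *Spam1*, a hyaluronidase of sperm, had 1.12 in *Mfn1*-/- and 1.71 in WT oocytes, *Zpbp2* had 0.258 and 0.556, a plain ratio of 0.464, and *Izumo1*, the ligand of JUNO and named after its values were seen, had 0.0149 and 0.018. *Fetub*, which encodes the plasma inhibitor of ovastacin, had 1.18 and 2.07, a log2 fold change of -0.76, beside 14.9 and 11.9 for *Astl*. Of 10 oocyte markers 0 passed, against 7.61% of all genes, with a median of -0.05. Of 13 granulosa and theca markers 0 passed with the pseudocount of 0.1, with a median of -0.03, and 3 did with 0.01 or none. Over all genes the shares were 7.61%, 17.1% and 21.0% at these settings. The 3 markers that passed had low means, and *Hsd17b1* and *Foxl2* were named after their values were seen. *Hsd17b1* had 0.0412 in *Mfn1*-/- and 0.152 in WT oocytes, *Foxl2* had 0.0525 and 0.0183, and *Cyp19a1* had 0.0846 and 0.193.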
